A study of Mus musculus with 38 samples.

Results

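JunB binding was compared between cultured mouse cortical neurons that had been depolarised and neurons that had been kept silent, from 1 chromatin immunoprecipitation library in each condition. These were the only 2 JunB samples among the 38 samples of the series, and they were chosen by their labels, with no measured value used. Both came from biological sample 4 and were made with the antibody sc46. The neurons were dissociated from the cortices of C57BL/6 embryos at embryonic day 16.5 and used at day 7 in vitro, so the cultures hold embryonic cortical cells of any type that survives plating. All of them had been silenced overnight with 1 µM TTX, a sodium channel blocker, and 100 µM DL-AP5, an NMDA receptor antagonist. The unstimulated group stayed silenced, and the KCl group was depolarised for 2 h. A cell type could not be checked against marker genes here, because the lists hold positions and not expression. With 1 library on each side no difference between the conditions has a replicate check, and none was tested.

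JunB is a member of the Jun family of basic leucine zipper proteins. It binds DNA as a dimer, usually with a Fos protein such as c-Fos or FosB, and these dimers are called AP-1. The genes for c-Fos, FosB and JunB are immediate early genes: in neurons, calcium entry after depolarisation induces them without new protein synthesis. AP-1 dimers are found mostly at enhancers, the distal elements that raise transcription from a promoter. Active enhancers carry acetylation of histone H3 at lysine 27 (H3K27ac), monomethylation of H3 at lysine 4 (H3K4me1) and the acetyltransferase CBP.

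After KCl most JunB peaks lay where silenced neurons had none. The authors' list held 19346 JunB peaks after KCl and 3126 in silenced neurons. A peak was called gained when it was listed after KCl and shared no base with an unstimulated JunB peak, lost in the opposite case, and kept when the lists shared at least 1 bp. By this rule 17738 KCl peaks were gained, which is 91.7% of the KCl list, and 1608 were kept. Of the unstimulated peaks 1437 were lost, 46% of that list, and 1689 (54.0%) were kept. The numbers of kept peaks differ because 59 KCl peaks each covered 2 or more unstimulated peaks. The kept share depends on list length: against only the 3126 highest-scoring KCl peaks, 20.4% of the unstimulated peaks were kept. In the same cultures the share of KCl peaks without an unstimulated partner was 81.3% for c-Fos with the antibody sc52, 98.6% for c-Fos with sc7202 and 86% for FosB with sc48, so the JunB share lay inside the range of the other AP-1 lists. List length includes any difference in sequencing depth, which is unknown because the files hold no reads.

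Kept JunB peaks had the higher scores in both lists. The authors' score rises with the evidence for a peak, starts at 50 and reaches 3100, and was compared within a list only. In the KCl list the median score was 127 for kept peaks (quartiles 78.7 and 227) and 80.95 for gained ones (61.5 and 125). In the unstimulated list it was 110 for kept peaks (67.7 and 187) and 60.7 for lost ones (53.9 and 84.1). Scores under 60, just above the floor, belonged to 47.7% of lost peaks and 17.1% of the kept unstimulated ones. Lost peaks thus lay near the calling threshold more often than kept ones. In the lowest score quartile of the unstimulated list 28.8% of peaks were kept, in the second 41.0%, in the third 60.7% and in the highest 85.7%. The share kept was higher in each quartile than in the one below it. In the KCl list the corresponding shares were 3.95%, 5.38%, 7.92% and 16%.

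**Figure D1:**
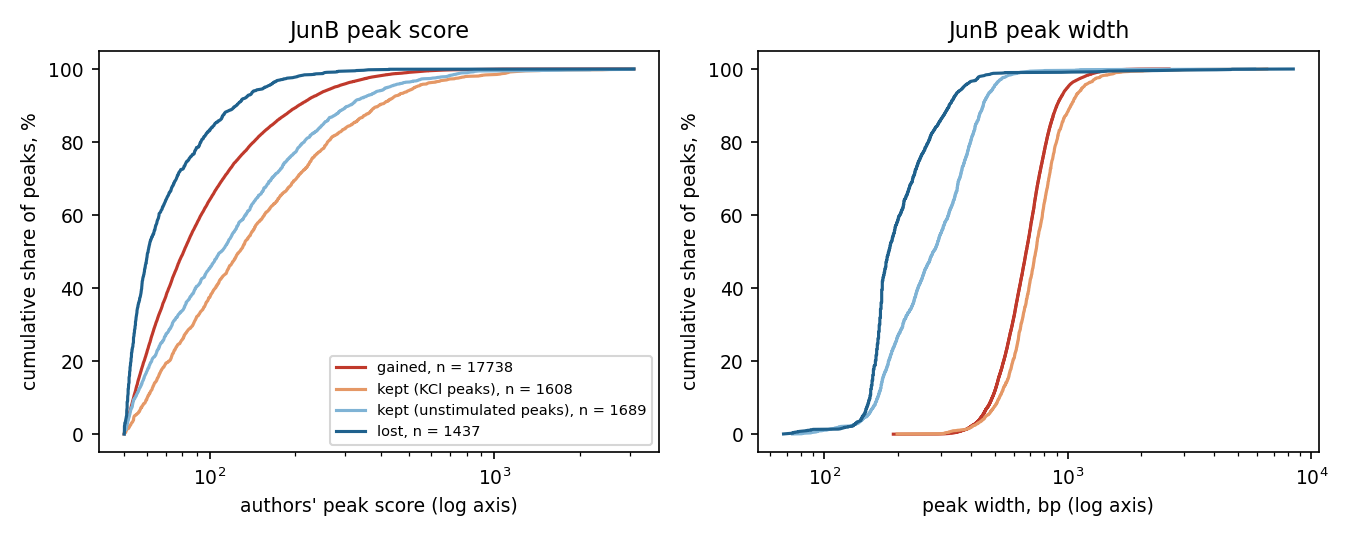
Cumulative share of JunB peaks (vertical axes, %) against the authors' peak score and against peak width in bp, both on log axes, for gained, kept and lost peaks. Lost peaks stay close to the score floor (median 60.7), and both kinds of KCl peak lie to the right of both kinds of unstimulated peak in width (medians 674 and 738.5 bp against 281 and 184 bp).

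The KCl peaks were also much wider. Gained peaks had a median width of 674 bp and kept KCl peaks of 738.5 bp, against 281 bp for the kept and 184 bp for the lost peaks of the unstimulated list. The narrowest KCl peak spanned 192 bp, and 1175 unstimulated peaks (37.6%) were narrower than that. At a kept site the KCl peak was the wider one in 1688 of 1690 overlapping pairs, by a median factor of 2.58. The unstimulated peak lay wholly inside its KCl partner in 1595 pairs (94.4%), and the median distance between the 2 centres was 59 bp. The kept peaks therefore shared their position and not only an edge. The other lists of this culture did not all widen after KCl. Their median widths in silenced and KCl neurons were 888 and 790 bp for c-Fos with sc52, 157 and 733 bp with sc7202, and 178 and 187 bp for FosB. Width also differed between lists of the same antibody and condition. The FosB lists under control shRNA, both after KCl, had medians of 767 bp in biological sample 5 and 254 bp in biological sample 6. The part that depth or the calling itself plays in the width was not tested. A KCl JunB centre lay within 10 kb of 16.9% of lost peaks, none of which overlaps a KCl peak by definition.

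Most JunB peaks lay outside H3K27ac, and the gained peaks overlapped it more often than the kept or lost ones. The H3K27ac lists merge biological samples 1 and 2, other cultures than the JunB libraries. Of gained peaks 31.9% overlapped an H3K27ac peak of either condition (Wilson 95% interval 31.2 to 32.6%), against 22.9% of kept KCl peaks (20.96 to 25.1%) and 17.5% of lost peaks (15.6 to 19.5%). These intervals, here and below, cover counting error only. Acetylation listed after KCl alone lay at 9.10% of gained peaks, 4.23% of kept and 2.64% of lost ones. Acetylation listed in silenced neurons alone lay at 3.16%, 5.35% and 3.62%. Gained peaks thus met acetylation specific to KCl more often than acetylation specific to silence, and kept and lost peaks did not. Acetylation present in both conditions lay at 19.6% of gained, 13.4% of kept and 11.2% of lost peaks. Promoter-near acetylation, taken as the KCl H3K27ac peaks that the authors did not list as distal, was rare at all JunB peaks: 5.23% of gained, 1.06% of kept and 1.39% of lost peaks overlapped it. Within the gained set the peaks at KCl-only acetylation had the highest median score, 104 over 1615 peaks, against 85.5 over the 3484 peaks with acetylation in both conditions and 78 over the 12079 with none. The remaining 68.1% of gained, 77.1% of kept and 82.5% of lost peaks lay outside every H3K27ac peak.

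**Figure D2:**
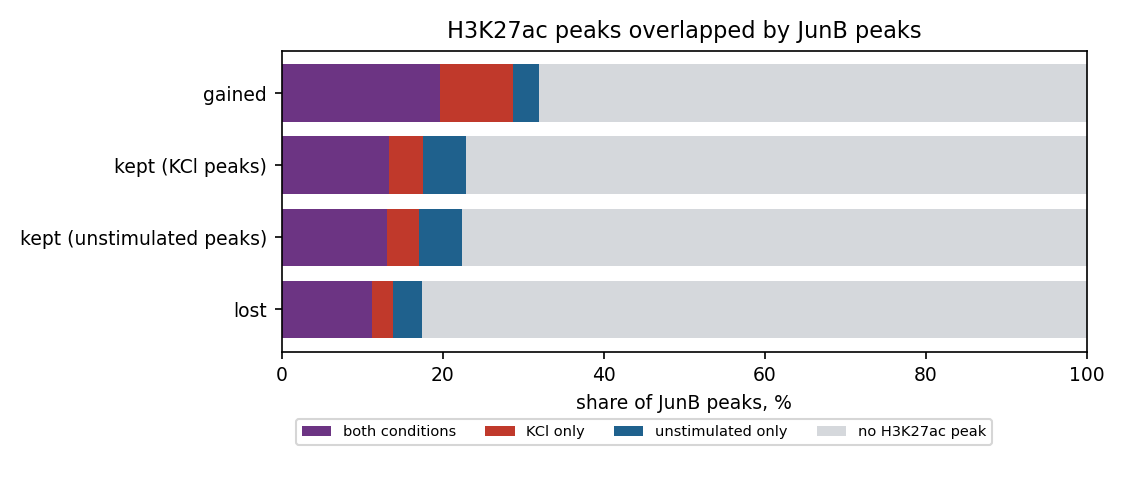
Share of JunB peaks (horizontal axis, %) that overlap H3K27ac peaks listed in both conditions, after KCl alone, in silenced neurons alone or in neither, for gained peaks, kept peaks of each list and lost peaks. The band for acetylation after KCl alone is widest in the gained peaks (9.10%), and the grey band without acetylation is the largest in each row (68.1% in the gained and 82.5% in the lost peaks).

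Read from the acetylated regions, JunB after KCl was most frequent where distal acetylation was listed after KCl alone. Of all 18556 distal H3K27ac peaks of the KCl list, 22.5% overlapped a KCl JunB peak. The share was 29.5% (28.2 to 30.8%) for the 4824 peaks found after KCl alone and 20.03% (19.4 to 20.7%) for the 13732 also found in silenced neurons. Of the distal peaks of the unstimulated list, 16.8% overlapped a KCl JunB peak in all, and 9.79% (9.06 to 10.6%) of the 5872 that were absent after KCl did. The peaks of single conditions were the narrower ones, with median widths of 1837 bp after KCl and 1774 bp in silenced neurons, against 2393 bp for the shared KCl peaks. Per megabase of acetylated sequence there were 158 overlaps with KCl JunB peaks in KCl-only peaks, 80.2 in shared ones and 53.9 in peaks of silenced neurons alone. The unstimulated JunB peaks showed no such order: they overlapped 1.89% of the distal peaks of KCl alone, 2.50% of the shared ones and 2.08% of those of silenced neurons alone.

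The enhancer classes of the authors gave a different order of JunB before and after stimulation. The classes split distal sites marked by CBP and H3K4me1 by H3K27ac, into sites where it increased, decreased, stayed constant or was absent, as the lists are named. Of all 11830 such sites, 5.13% lay inside an unstimulated JunB peak and 41% inside a KCl JunB peak. No class was given for 6938 of them, of which JunB covered 4.45% before and 38.97% after KCl. In silenced neurons JunB was most frequent at the 1886 sites with no H3K27ac, covering 11.03% of them (9.69 to 12.5%). It covered 4.47% of decreasing sites (3.201 to 6.21%), 3.50% of constant sites (2.43 to 5.01%) and 1.98% of increasing sites (1.38 to 2.82%). The intervals of increasing and constant sites overlap, and at a score of at least 100 their order was the opposite, with 1.09% of increasing and 0.75% of constant sites. The unstimulated FosB list of the same culture covered 5.09% of sites with no H3K27ac, 4.34% of decreasing, 3.25% of constant and 1.29% of increasing sites. Its intervals overlap for all but the increasing sites. Unstimulated c-Fos covered 2.28%, 1.49%, 0.25% and 0.0681% of these classes with sc52, and 0.106%, 0%, 0% and 0% with sc7202. After KCl the increasing sites had the most JunB. JunB then covered 57.6% of the 1468 increasing sites (55.0 to 60.1%), 43.8% of sites with no H3K27ac (41.6 to 46.0%), 31.6% of the 738 decreasing sites (28.3 to 35.01%) and 30.5% of the 800 constant ones (27.4 to 33.8%). The intervals of decreasing and constant sites overlap. Among only the 3126 highest-scoring KCl JunB peaks the shares were lower, at 21.4% of increasing sites, 10.9% of those with no H3K27ac, 6.88% of the constant and 6.10% of the decreasing sites. At a score of at least 100 they were 37.2%, 22.4%, 14.9% and 14.8%, so increasing sites came first and sites with no H3K27ac second under each of these rules.

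**Figure D3:**
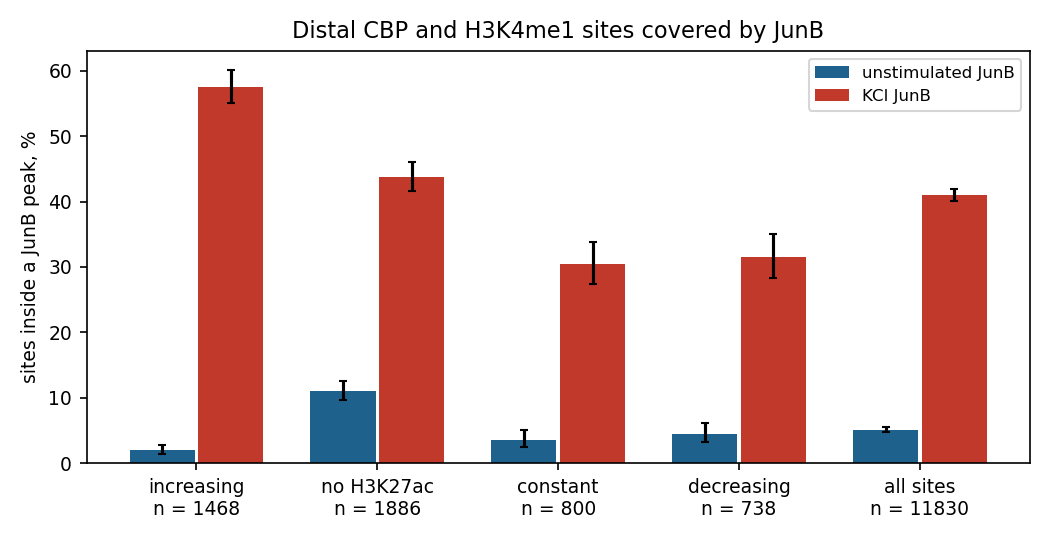
Share of distal CBP and H3K4me1 sites (vertical axis, %) that lie inside a JunB peak of silenced or KCl-treated neurons, for each H3K27ac class and for all sites, with Wilson 95% intervals as error bars. Before stimulation the bar is highest for sites with no H3K27ac (11.03%) and after KCl for increasing sites (57.6%).

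JunB peaks at increasing enhancers were less often kept than JunB peaks at large, of which 8.31% were kept, or those at any CBP and H3K4me1 site, of which 11.8% (561 of 4760) were. Gained peaks covered 55.1% of the increasing sites and kept peaks 2.45%. Of the 820 KCl JunB peaks that held an increasing site, 35 (4.27%, 3.08 to 5.88%) were kept. At sites with no H3K27ac, by contrast, 190 of 824 JunB peaks (23.1%, 20.3 to 26.1%) were kept, and at decreasing sites 41 of 229 (17.9%, 13.5 to 23.4%). Constant sites lay between, with 19 of 239 (7.95%, 5.15 to 12.1%). JunB peaks at increasing enhancers also had the higher scores, with a median of 129 against 96.2 at constant, 92.5 at decreasing and 102 at sites with no H3K27ac. In the same culture the KCl lists of c-Fos covered 27.7% (sc52) and 55.2% (sc7202) of increasing sites and that of FosB 16.3%, with 10%, 24.3% and 6.88% of constant sites. These lists differ in length, so the levels do not rank the proteins. Of the increasing sites covered by JunB, 82.8% (80.2 to 85.2%) also lay inside a c-Fos peak of either antibody, against 63.9% of the constant (57.7 to 69.7%), 53.2% of the decreasing (46.8 to 59.5%) and 63.9% of the unacetylated ones (60.6 to 67.1%). Sites inside a c-Fos or FosB peak but no JunB peak were fewer, with 8.65% of increasing and 6.25% of constant sites.

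Kept JunB peaks held enhancer sites more often than gained ones, by a margin that was small among the highest scores. A CBP and H3K4me1 site of any class lay inside 34.9% of kept KCl peaks, 23.7% of gained peaks and 9.46% of lost peaks. Such shares depend on peak width, and lost peaks come from the list of narrower peaks. Of the kept peaks of that list, 27.9% held a site. A site lay within 1 kb of the centre of 35.2% of kept KCl, 24.3% of gained and 13.6% of lost peaks. Sites with no H3K27ac lay inside 11.8% of kept KCl, 3.57% of gained and 2.71% of lost peaks. For increasing sites the order was the opposite, with 2.18% of kept and 4.43% of gained peaks. Since kept peaks score higher, gained and kept peaks were also compared within each score quartile of the KCl list. From the lowest to the highest quartile, a site of any class lay in 24.6%, 29.6%, 36.03% and 38.6% of kept peaks against 14.98%, 19.97%, 24.9% and 36.5% of gained ones. In the highest quartile, which holds 774 of the 1608 kept peaks, the intervals overlap (35.3 to 42.1% and 35.01 to 37.97%). Sites with no H3K27ac lay in 6.81%, 10%, 13.6% and 12.8% of kept peaks against 2.45%, 3.21%, 3.93% and 4.87% of gained ones. Increasing sites lay in 0.524%, 0.769%, 1.57% and 3.36% of kept peaks against 2.04%, 2.78%, 4.13% and 9.33% of gained ones. H3K27ac of either condition was at 19.4%, 21.5%, 24.5% and 23.5% of kept peaks against 26.7%, 29.5%, 31.3% and 41.3% of gained ones. The kept peaks with an increasing site numbered 1, 2, 6 and 26. In each of the 4 quartiles the share of kept peaks thus was higher for unacetylated sites, and lower for increasing sites and for H3K27ac, than that of gained peaks. The intervals overlap, however, for increasing sites in the lowest and second quartiles. They also overlap for H3K27ac in the lowest (14.4 to 25.6% of kept and 25.4 to 27.96% of gained peaks).

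**Figure D4:**
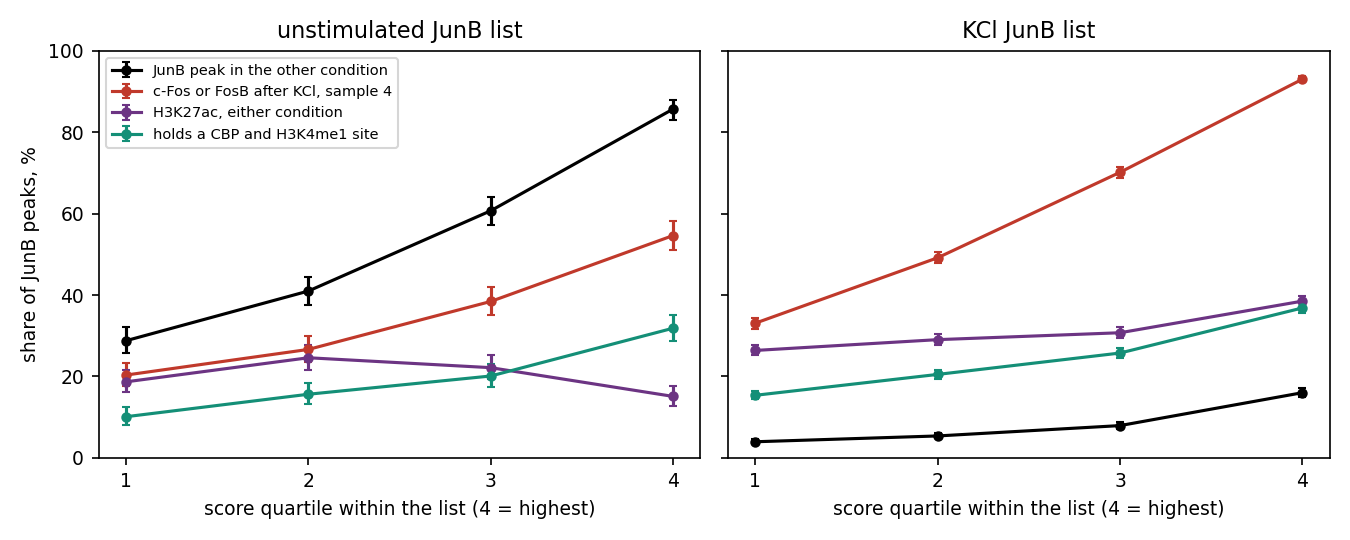
Share of JunB peaks (vertical axes, %, with Wilson 95% intervals) by score quartile within the unstimulated list and within the KCl list, for a JunB peak in the other condition, c-Fos or FosB after KCl in biological sample 4, H3K27ac of either condition, and a CBP and H3K4me1 site. The share of unstimulated peaks that were kept climbs from 28.8% to 85.7%, and the share of KCl peaks with c-Fos or FosB from 33.1% to 93.0%.

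Most gained JunB peaks had c-Fos or FosB beside them in the same culture, and lost peaks seldom did. A KCl peak of c-Fos (either antibody) or FosB of biological sample 4 overlapped 61.7% of gained peaks (60.9 to 62.4%), 57.9% of kept KCl peaks (55.5 to 60.3%) and 7.03% of lost peaks (5.82 to 8.47%). The JunB peaks were also split into classes by whether c-Fos, FosB, both or neither was listed there. These classes depend on list length: the KCl lists of this culture held 4899 FosB, 6808 sc52 and 16270 sc7202 peaks. Peaks called neither could be listed elsewhere. KCl lists of c-Fos or FosB without knockdown from biological samples 3, 5 and 6 held 64.2% of such gained and 49.8% of such kept peaks. Of gained peaks 15.7% had both proteins, 43.7% c-Fos without FosB, 2.28% FosB without c-Fos, and 38.3% neither. Of kept peaks 29.9% had both, 19.5% c-Fos alone, 8.46% FosB alone and 42.1% neither. FosB was thus listed at 38.4% of kept and 17.99% of gained peaks, while c-Fos with sc7202 was listed at 42.2% of kept and 57.1% of gained ones. With sc52 the c-Fos shares were 33.2% of kept and 25.7% of gained peaks, so over all scores the order for c-Fos depended on the antibody. Within each score quartile of the KCl list, a c-Fos peak listed with sc52 or sc7202 was less frequent at kept peaks. From the lowest quartile up it lay at 11.5%, 21.2%, 33.4% and 76.2% of kept peaks against 31.7%, 47.2%, 69.5% and 93.65% of gained ones. The antibodies were not compared separately within quartiles. FosB lay at 13.6%, 18.1%, 22.5% and 59.2% of kept peaks against 4.02%, 7.32%, 14.6% and 49.6% of gained ones. The share with any of these lists was 33.1% in the lowest score quartile of the KCl JunB peaks and 93.0% in the highest. Gained peaks with both proteins had a median score of 189 and a median width of 799 bp, against 63.9 and 609 bp for gained peaks with neither. Of the former 42.0% (40.2 to 43.9%) were acetylated and 9.08% held an increasing enhancer. Of the latter it was 25.4% (24.4 to 26.5%) and 1.79%.

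KCl lists of other cultures held most gained JunB peaks and few lost ones. At least 1 of the 7 KCl lists of c-Fos or FosB from biological samples 3, 5 and 6 (without shRNA, or with control shRNA) held 83.7% of gained, 74.8% of kept and 20.9% of lost JunB peaks. All 7 held 15.9% of gained, 16.6% of kept and 0.0696% of lost peaks. In the top score quartile of the KCl JunB list 97.2% of peaks were in at least 1 of them and 43.9% in all 7.

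Kept JunB peaks were, in addition, often listed for other proteins in silenced neurons. Of kept KCl peaks 39.1% overlapped an unstimulated FosB peak of biological sample 4, 18.2% an unstimulated sc52 peak and 3.73% an unstimulated sc7202 peak, against 1.61%, 0.440% and 0.101% of gained peaks. Over the 6 unstimulated c-Fos and FosB lists of biological samples 3 and 4, 51.1% (48.7 to 53.6%) of kept, 21.8% (19.7 to 24.0%) of lost and 3.43% (3.18 to 3.71%) of gained peaks were in at least 1. Among the 190 kept peaks at sites with no H3K27ac it was 57.9% (50.8 to 64.7%). At the other classes it was 57.9% of 19 kept peaks at constant, 65.9% of 41 at decreasing and 48.6% of 35 at increasing sites. The intervals of all these classes overlap, so this share did not separate sites with no H3K27ac from the others. When every JunB peak found in any of these 6 lists was left out, an alternative added after the values were seen, 41.5% of the remaining unstimulated peaks were kept, and sites with no H3K27ac still had the highest unstimulated JunB share, at 5.09% against 2.00% for constant, 1.76% for decreasing and 1.09% for increasing sites.

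**Figure D5:**
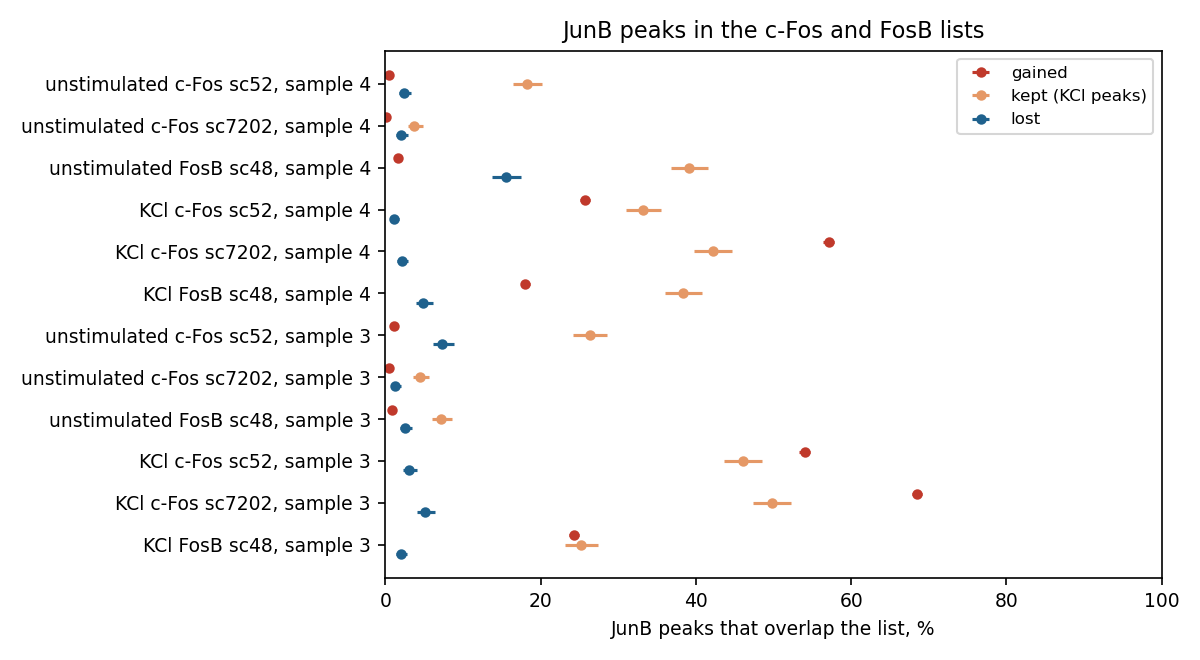
Share of gained, kept and lost JunB peaks (horizontal axis, %, with Wilson 95% intervals) that overlap each c-Fos and FosB list of biological samples 4 and 3 in either condition. Lost peaks stay low in the KCl lists (at most 5.08%), gained peaks stay under 2% in the unstimulated lists, and kept peaks stand out in the unstimulated FosB list of biological sample 4 (39.1%).

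Cultures in which c-Fos or FosB had been targeted by an shRNA, all of them given KCl, differed in how many gained and kept JunB peaks they listed. In biological samples 5 and 6 the FosB lists under control shRNA held 54.5% and 45.2% of gained and 52.2% and 51.3% of kept JunB peaks. The FosB lists under FosB shRNA held 24.2% and 20.2% of gained and 43.8% and 49.4% of kept peaks. The c-Fos lists (sc52) under control shRNA held 55.5% and 59.3% of gained and 36.6% and 43.0% of kept peaks. Under c-Fos shRNA they held 7.77% and 0.806% of gained and 18.6% and 6.59% of kept peaks. In both cultures a smaller share of kept than of gained peaks was thus in the c-Fos list under control shRNA, and a larger share under c-Fos shRNA. These shares depend on list length: the c-Fos lists held 23578 and 19131 peaks under control shRNA and 7808 and 1793 under c-Fos shRNA, and the FosB lists 22933 and 14139 under control shRNA and 9941 and 7180 under FosB shRNA. Peak width differed too, and its part in these shares was not tested. In biological samples 5 and 6 the FosB lists had median widths of 767 and 254 bp under control shRNA. Under FosB shRNA they had 221 and 234 bp. The c-Fos lists had 841 and 785 bp under control shRNA and 985 and 890 bp under c-Fos shRNA. No JunB library of these cultures was analysed here.

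The 5 gained JunB peaks of highest score lay outside acetylated chromatin, although H3K27ac was more frequent in the highest score quartile of gained peaks (41.3%) than in the lowest (26.7%). In positions of mouse genome build mm9, with no gene assigned, these peaks were at chr17:66310562-66311814 (score 3100), chr13:45718774-45720035 (2702.86), chr13:58755041-58756663 (2285.27), chr15:95106676-95107752 (1804.89) and chr8:39820017-39820770 (1277.33). None of the 5 overlapped an H3K27ac peak of either condition or held a CBP and H3K4me1 site. All 5 were in all 10 KCl lists of c-Fos and FosB without knockdown and in none of the 6 unstimulated ones. On chromosome 8 the c-Fos scores in the same culture were 529.97 with sc52 and 1379.39 with sc7202, and the FosB score was 634.6.

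The 5 gained peaks of highest score that held an increasing enhancer were at chr6:70821713-70823021 (score 1245.8), chr3:50999075-50999964 (966.51), chr15:59311871-59312536 (907.59), chr17:32159793-32160755 (883.72) and chr4:87630369-87631689 (791.33). They stood at places 16, 38, 45, 51 and 63 of the KCl JunB list. The enhancer on chromosome 17, at position 32160250, lay 24 bp from the JunB centre, and that on chromosome 4, at 87630785, lay 244 bp away. On chromosome 17 the KCl H3K27ac peak reached from 32158898 to 32162367 (score 427.49) and on chromosome 4 from 87628728 to 87632083 (601.48), with no unstimulated H3K27ac peak at either. On chromosome 15 the H3K27ac peak was listed in both conditions, and at the other 4 it was listed after KCl alone. All 5 were in the 10 KCl lists of c-Fos and FosB and in no unstimulated list.

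The 5 kept pairs with the best summed ranks were of another kind. They lay at chr2:98506273-98507808 (score 3100 in both lists), on the mitochondrial genome from 1 to 6559 (score 3100, against 2 unstimulated peaks), at chr2:98502266-98503272 (2541.41 after KCl, 2843.34 unstimulated) and at chr17:39979819-39985898 (2404.91 and 1374.94). The 2 peaks on chromosome 2 and the one on chromosome 17 were also in all 6 unstimulated c-Fos and FosB lists. The mitochondrial one was in 5 of them. The peaks on chromosomes 2 and 17 were, in addition, in the 2 lists under c-Fos shRNA and the 2 under FosB shRNA. Their nearest CBP and H3K4me1 sites lay 2.63e+06 to 2.74e+06 bp away. None of the kept peaks named here overlapped H3K27ac. Whether these peaks reflect JunB binding was not tested, because input DNA was not analysed. They are therefore not presented as the strongest lasting JunB sites. JunB peaks of the mitochondrial genome and of random or unplaced sequence made up 1.06% of kept, 1.32% of lost and 0.0451% of gained peaks.

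A second set of kept pairs, chosen after the values were seen, shows the kept peaks at unacetylated enhancers. These were the 5 best-ranked kept pairs whose KCl peak held a site with no H3K27ac. The first was at chr16:13565297-13566135, with a KCl score of 1127.13 and an unstimulated score of 737.58, places 22 and 25 of their lists. The second was at chr5:140847522-140848106 (1095.51 and 602.54), the third at chr2:169237978-169238563 (769.54 and 363.17), the fourth at chr13:112624519-112625421 (900.9 and 334.61) and the fifth at chr4:131581358-131582314 (547.91 and 826.73). The enhancer lay 25 to 46 bp from the KCl JunB centre at all 5. The site on chromosome 4 stood at place 16 of the unstimulated list and at place 192 of the KCl list. It was in 1 of the 6 unstimulated c-Fos and FosB lists, whereas the others were in 2 to 4.

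Few lost peaks stood high in the unstimulated list. Apart from a mitochondrial peak from 10987 to 15710 (score 3100), the 4 lost peaks of highest score were at chr10:92342664-92343009 (426.49), chr14:23142666-23143217 (425.87), chr2:25895522-25895939 (361.22) and chr4:150553011-150553500 (355.46), at places 86, 87, 127 and 131 of the unstimulated list. Each of these 4 was also in 1 to 3 unstimulated lists of c-Fos or FosB. The peak on chromosome 4 held a CBP and H3K4me1 site, 94 bp from its centre. It also overlapped an H3K27ac peak of the KCl list, from 150552197 to 150554554 (score 76.63). The other 3 lay outside H3K27ac.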

How the data were processed

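The submitters' processing notes name BWA and the genome build mm9, without a BWA version. The deposited peak names begin with MACS, and the sources used here do not give its version or its control library. Per the labels, the authors called each AP-1 list on 1 library, while the H3K27ac lists merge biological samples 1 and 2. The deposited score of a peak follows the negative log10 of its p-value, 50 standing for 1e-05. Other lists deposited by the authors hold single positions, and how the enhancer classes were made is not stated in the sources used.

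Overlaps of at least 1 bp were computed in Python 3.11.15 (numpy 2.4.6, pandas 2.3.3, scipy 1.17.1), with matplotlib 3.10.9 for figures. An enhancer was covered when its position lay inside a peak. Peaks that met both distal and non-distal H3K27ac counted as non-distal. Shares carry Wilson 95% intervals. Peaks are not replicates, and with 1 library per condition no test was run. To check the code, short intervals were placed inside 9513 KCl JunB peaks and in gaps between peaks. The overlap step found 100% of these 9513 peaks and called 0% of the 9514 others. Correct code must give this result, so it says nothing about the peaks themselves.

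The sites named were the 5 gained and 5 lost peaks of highest score, the 5 kept pairs of lowest summed rank and the 5 highest-scoring gained peaks with an increasing enhancer. The members and lists were chosen with earlier results of these data known. Alternatives were a score of at least 100 (1e-10), other overlap rules, a KCl list shortened to its 3126 highest scores, merged peaks, autosomes only and the c-Fos and FosB lists of biological sample 3. Genes, motifs, sequences and input DNA were not analysed here.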

Additional observations from a re-analysis of the deposited data

How the results depend on the processing

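No paired analysis was possible because the 2 groups share a single biological sample number and hold 1 library each, which also leaves no replicate to omit. Depth is unknown. The gained and kept shares moved by less than their counting intervals with an overlap of at least 50% of the shorter peak, with peaks within 500 bp merged and on autosomes only.

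With the KCl list shortened to the 3126 highest scores, 81.4% of its peaks were gained and 20.4% of unstimulated peaks kept. H3K27ac of any kind lay at 43.6% of gained peaks, and KCl-only H3K27ac at 17.3% of gained and 6.70% of kept ones. JunB covered 21.4% of increasing, 10.9% of unacetylated, 6.88% of constant and 6.10% of decreasing sites. Median scores were 238 for gained, 277 for kept KCl, 147 for kept unstimulated and 69.9 for lost peaks, and median widths were 849, 852, 329 and 210 bp.

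With a score of at least 100 in both lists 56.6% of unstimulated peaks were kept. Any H3K27ac lay at 38.2% of gained and 18.4% of kept peaks, and KCl-only H3K27ac at 13.02% of gained ones. After KCl JunB covered 37.2% of increasing, 22.4% of unacetylated, 14.9% of constant and 14.8% of decreasing sites. In silenced neurons it covered 1.09%, 6.89%, 0.75% and 2.44% of them, so that constant and not increasing sites were the lowest. c-Fos or FosB peaks of biological sample 4 with that score lay at 59.3% of gained, 44.1% of kept and 5.54% of lost peaks. Median scores were 152 for gained, 206 for kept KCl, 192 for kept unstimulated and 139 for lost peaks, and median widths were 786, 794, 378.5 and 334 bp.

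Leaving out every JunB peak found in an unstimulated c-Fos or FosB list was an alternative chosen after seeing the data. Then 95.6% of KCl peaks were gained and 41.5% of unstimulated peaks kept, and 30.6% of gained peaks were acetylated. After KCl JunB covered 37.3% of unacetylated, 27.4% of constant and 24.7% of decreasing sites. In silenced neurons it covered 1.09% of increasing, 5.09% of unacetylated, 2.00% of constant and 1.76% of decreasing sites. c-Fos or FosB lay at 46.2% of kept and 4.57% of lost peaks. Median scores were 109.66 for kept KCl, 80.4 for kept unstimulated and 59.0 for lost peaks, and median widths were 720.5, 235 and 177 bp.

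With kept peaks defined by centres within 200 bp, 92.1% of KCl peaks were gained, 49.6% of unstimulated peaks were kept, and lost peaks had a median score of 61.8. A c-Fos or FosB centre lay within 200 bp of 59.4% of gained JunB centres. With a JunB centre within 200 bp of the enhancer, 51.8% of increasing sites had JunB after KCl and 6.23% of decreasing sites without stimulation. Within 500 bp the unstimulated shares were 2.86% of increasing, 6.78% of decreasing and 12.6% of unacetylated sites. H3K27ac at the JunB centre was found for 30.9% of gained peaks. The c-Fos and FosB lists of biological sample 3 held 71.6% of gained peaks. Increasing sites had the highest share after KCl in all 5 alternatives that recomputed it, and unacetylated sites the highest share in silenced neurons in all 4, whereas constant and decreasing sites changed order.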

Other observations

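JunB peaks after KCl were mostly solitary. With centres no more than 10 kb apart joined, the KCl peaks on placed chromosomes formed 16769 groups, of which 14655 held a single peak, 1761 held 2, 293 held 3, 46 held 4 and 14 held 5 or more. Another KCl JunB centre lay within 10 kb of 24.5% of gained and 20.2% of kept peaks. The following groups were singled out after their values were seen. The largest, at chr9:3015131-3038564, held 14 peaks, all 14 of them kept and none acetylated. Whether these 14 peaks reflect JunB binding was not tested, because input DNA was not analysed. The next groups held 6 peaks each. The group at chr13:41841038-41855134 had 4 acetylated peaks, 4 peaks with an increasing enhancer and 1 kept peak, with a highest score of 224.22. The group at chr1:171746993-171771021 had 4 acetylated peaks, no increasing enhancer and no kept peak, with a highest score of 578.87.

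Over the 1690 kept pairs the score ranks of the 2 conditions were weakly ordered alike (Spearman rho = 0.29, across sites of the same 2 libraries, which are not replicates). The share of lost peaks varied between chromosomes, from 37.4% on chromosome 9 to 58.4% on chromosome 11 among chromosomes 1 to 19, where the unstimulated list held 72 to 256 peaks a chromosome. The share of gained peaks varied less, from 89.3% on chromosome 9 to 93.6% on chromosome 10. The group of 14 kept peaks named above is among the 108 kept of 1005 KCl peaks on chromosome 9.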
